A study of Mus musculus with 4 samples.

Results

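The metabolic nuclear receptors of the liver were examined here in 4 mouse livers as 10 genes chosen by symbol: Ppara, Ppard, Pparg, Nr1h3, Nr1h2, Nr1i2, Nr1i3, Rxra, Hnf4a and Nr5a2. All 10 were found among the 46603 Ensembl genes of the count table, and all 10 passed the filter on low counts that left 13001 genes for testing. The mice were HuR flox/flox animals, all labelled male, on a C57BL/6 J background, and every one of them, controls included, carried the floxed HuR allele (Elavl1), received an AAV8 vector with the hepatocyte-directed thyroxine-binding globulin promoter (TBGP) through the tail vein, and was fed a Western diet with sugar water (WDSW) for 4 weeks. Control mice 1 and 2 received AAV8-TBGP-GFP, and mice 3 and 4, labelled HuR hKO for hepatocyte-specific HuR knockout, received AAV8-TBGP-Cre. The mice were matched for age, which the labels do not state. The GFP and Cre vectors came from different suppliers, and Cre under this promoter leaves HuR in the other cells of the liver. The comparison asked whether the receptors that set lipid, bile acid and drug metabolism differed between the livers labelled HuR hKO and the control livers.

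Nuclear receptors are transcription factors that bind DNA through paired zinc fingers and change the genes they transcribe when a small lipophilic ligand enters their ligand-binding pocket. In the liver, the peroxisome proliferator-activated receptors (PPARs) sense fatty acids, the liver X receptors (LXRs) sense oxysterols, and the pregnane X receptor (PXR, Nr1i2) and constitutive androstane receptor (CAR, Nr1i3) sense drugs, bile acids and other foreign or endogenous compounds. PPARs, LXRs, PXR and CAR pair with the retinoid X receptor (RXRα, Rxra), whereas hepatocyte nuclear factor 4 alpha (HNF4α, Hnf4a) binds as a homodimer and liver receptor homolog 1 (LRH-1, Nr5a2) as a monomer.

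For each of the 10 genes, a coding stretch is shown at the base of the first zinc finger. It opens the P box, which reads the DNA half-site. The stretch was read from the longest coding sequence of each gene in GENCODE M21 (GRCm38), 5′ to 3′. It holds 30 bases from the cysteine codon that starts the P box, and each gene held exactly 1 match. The search required cysteine, lysine, glycine and phenylalanine codons at fixed places, so much of the likeness was set by the search. Capitals mark the bases that differ from Ppara.
Ppara: tgtgaaggctgtaagggcttctttcggcga
Ppard: tgCgaGggGtgCaagggcttcttCcgCcgG
Pparg: tgtgaaggAtgCaagggTttTttCcgAAga
Nr1h3: tgCgaGggctgCaagggAttcttCcgCcgC
Nr1h2: tgtgaaggctgCaaAggcttcttCcggcgC
Nr1i2: tgtgaaggAtgCaagggGttTttCAgAAgG
Nr1i3: tgtgaGggctgCaagggcttcttCAgAcga
Rxra: tgtgaGggctgCaagggcttcttCAAgAgG
Hnf4a: tgtgaCggctgCaagggGttcttCAggAgG
Nr5a2: tgCgaaAgctgCaagggTttTtttAAgcga

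Against Ppara, between 4 bases (Nr1h2) and 9 bases (Nr1i2) of the 30 differed, and 5 differed in Nr1i3 and 7 in each of the others. Of longer runs, 0 stretches of 31 bases were shared between any pair of the 10 genes over all their annotated transcripts. Ppara, Nr1h2, Nr1i2, Nr1i3, Rxra and Hnf4a shared no such stretch with any other annotated gene, and Nr5a2 shared most, 2.09% of its stretches, with Gm18981 and Gm17743. Nr1i3 has exons that overlap those of Tomm40l on the opposite strand (1595 counts over the 4 libraries), and the sources used here do not say whether the counting used strand.

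The libraries held 13032095 and 13615761 counts in control mice 1 and 2, and 13806773 and 19715577 counts in mice 3 and 4. Levels within a gene are given as CPM (counts per 1000000 counts) on library sizes scaled by TMM factors, which lay between 0.957 and 1.04. No pair of libraries agreed within sampling noise (chi-square over degrees of freedom from 23 to 35.7), so each library was counted as 1 sample. Elavl1, the targeted gene, was at 28.4 and 25.9 CPM in the control libraries and at 37.7 and 34.4 CPM in those labelled HuR hKO, so it was not lower under its knockout label (log2 fold change 0.41, SE 0.135, 95% interval 0.10 to 0.72, unadjusted p = 0.016 and adjusted p = 0.545 by the edgeR quasi-likelihood test). The sources used here do not say which exons the floxed allele removes. The groups are therefore named by their labels, and every direction below is that of the labels.

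The receptors stood at different levels when counts were divided by the length of each gene's merged exons and rescaled so that all genes of a library sum to 1000000 (length-scaled level). Hnf4a (225.1 ± 55.5, SD, n = 4), Rxra (212.7 ± 29.5) and Nr1i3 (185.0 ± 21.3) were the most abundant, and their ranges over the 4 libraries overlapped. Nr1h3, the gene of LXRα (89.3 ± 8.11), and Nr1i2 (86.5 ± 9.01) followed with ranges that also overlapped each other. Ppara (44.2 ± 8.80), Nr1h2, the gene of LXRβ (25.4 ± 2.66), Nr5a2 (17.6 ± 2.18), Pparg (11.9 ± 4.09) and Ppard (1.99 ± 0.302) came below, in that order, and none of their ranges overlapped. With the longest annotated transcript as the length of every gene, and the same rescaling of each library, Nr1i3 moved to the top at 227.0 and Ppard rose to 3.32, 1.67 times its level by merged exons, while the order from Nr1h3 down to Ppard was the same. The merged exons of Ppard span 7514 bases and its longest transcript 3726.

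**Figure D1:**
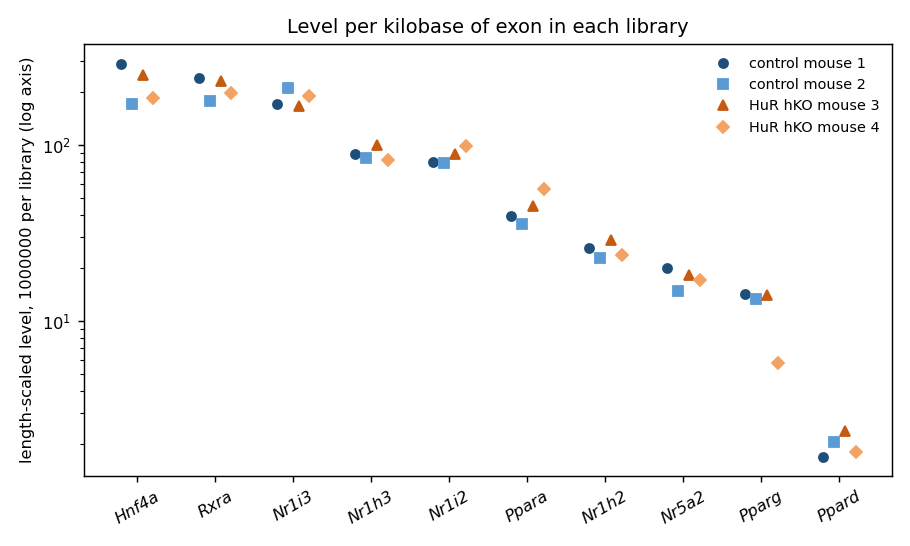
Length-scaled level (counts over merged exon length, rescaled to a sum of 1000000 per library, log axis) of the 10 receptor genes in each of the 4 libraries, ordered by their mean. Hnf4a, Rxra and Nr1i3 lie between 165.9 and 290.6 in every library, Ppard lies between 1.70 and 2.38, and Pparg is lowest in mouse 4 at 5.79.

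As a sum over the 10 genes, this length-scaled level was 975.0 and 816.0 in the control libraries and 946.7 and 861.1 in mice 3 and 4, so the pool of receptor transcripts overlapped between the groups. Hnf4a alone made up between 21.1% (control mouse 2) and 29.8% (control mouse 1) of that sum, and Rxra between 21.9% and 24.9%. Both control livers thus bounded the livers labelled HuR hKO for the sum and for the share of Hnf4a.

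Between the groups, none of the 10 receptors differed past an adjusted p-value of 0.05 in the edgeR quasi-likelihood test, against 0.0231% of all genes tested (3 of 13001). The fitted level was higher in the libraries labelled HuR hKO for 7 receptors and lower for 3, where 50.3% of all genes were higher. Ppara alone had an unadjusted p-value under 0.05 and it was higher, against 4.04% of all genes that were higher and 3.39% that were lower at that threshold. In 4 receptors (Ppara, Nr1h3, Nr1h2 and Nr1i2) mice 3 and 4 both lay above the control mice, and in 1 (Pparg) both lay below them, where 19.3% of all genes were separated upward and 18.8% downward. The median log2 fold change of the 10 was 0.07, beside 0.0020 over all genes. An exact two-sided permutation test of 2 against 2 mice has a smallest possible p of 0.333, and the edgeR p-values draw on a spread pooled over genes.

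**Figure D2:**
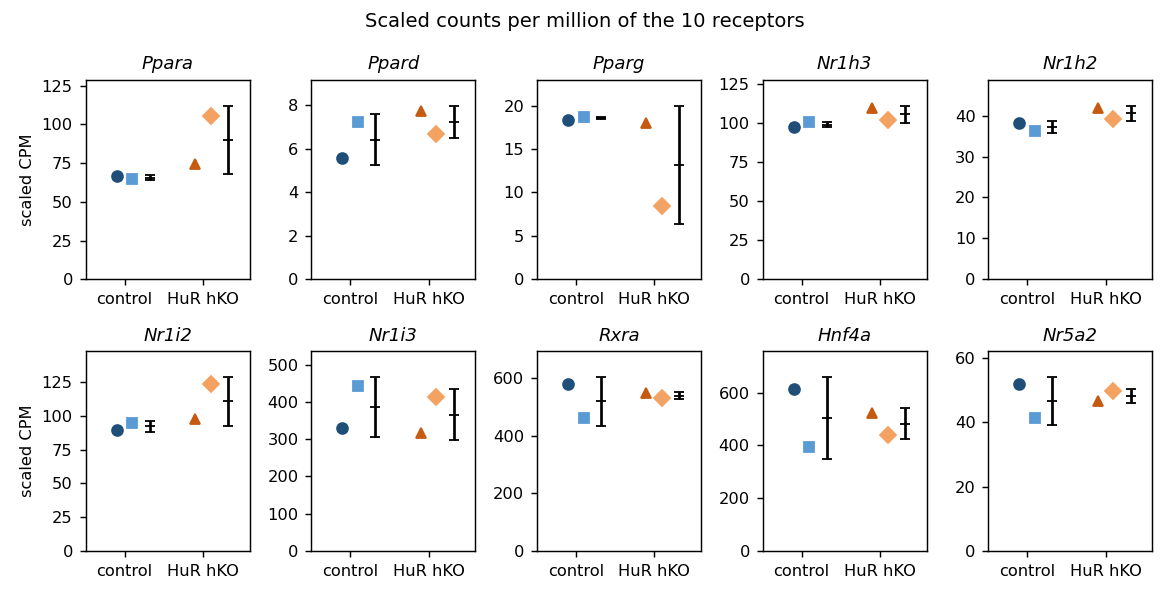
Scaled CPM of each receptor in the 2 control libraries (blue, mouse 1 circle and mouse 2 square) and the 2 libraries labelled HuR hKO (orange, mouse 3 triangle and mouse 4 diamond), with the mean ± SD in black and each vertical axis starting at 0. Mouse 4 sits apart from the other 3 libraries for Ppara (105.6), Pparg (8.39) and Nr1i2 (123.2).

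Ppara encodes PPARα, the fatty acid sensor that turns on fatty acid oxidation and ketogenesis in hepatocytes, and lies on the plus strand of chromosome 15 from 85734983 to 85802819. It was at 66.7 and 64.7 CPM in the control livers, 74.5 in mouse 3 and 105.6 in mouse 4. The control livers were nearly equal and mouse 4 held most of the difference. The means were 65.7 ± 1.43 and 90.1 ± 22.0 CPM (SD, n = 2 each), a log2 fold change of 0.46 (SE 0.175, 95% interval 0.06 to 0.86) with an unadjusted p of 0.0304 and an adjusted p of 0.603 from edgeR. Without mouse 4 the log2 fold change was 0.18 (unadjusted p = 0.325), and without mouse 3 it was 0.67. A change at least as large in either direction was found in 13.7% of all genes tested.

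Pparg encodes PPARγ, the adipocyte master regulator that is also raised in fatty liver, and spans chromosome 6 from 115360951 to 115490399 on the plus strand. Its counts were 245 and 250 in the control livers, 258 in mouse 3 and 158 in mouse 4, which after scaling gave 18.4, 18.7, 18.0 and 8.39 CPM. Mouse 3 lay just under the controls, whereas mouse 4, the deepest library, held less than any other. The log2 fold change was -0.51 (SE 0.305, 95% interval -1.21 to 0.19, adjusted p = 0.752 from edgeR). It was -0.04 without mouse 4 and -1.16 without mouse 3 (adjusted p = 0.325), so mouse 4 set its size. Without a filter on low counts its unadjusted p was 0.0287.

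Ppard encodes PPARδ, which is expressed in many tissues, and lies on chromosome 17 from 28232700 to 28301474 on the plus strand. Its counts were the lowest of the 10, with 74 and 97 for the control livers, then 111 and 126 for mice 3 and 4, or 5.57, 7.24, 7.74 and 6.69 CPM. The groups overlapped, with a log2 fold change of 0.17 (95% interval -0.35 to 0.69, adjusted p = 0.901 from edgeR).

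Ratios between receptors of the same library do not depend on the scaling for depth. The length-scaled level of Ppara was 2.78 and 2.67 times that of Pparg in the control livers, 3.19 times in mouse 3 and 9.69 times in mouse 4. Mouse 4 combined the highest Ppara and the lowest Pparg of the 4 livers, and mouse 3 stood close to the controls. Ppara exceeded Ppard by 23.5 and 17.5 times in the control livers and by 18.8 and 30.9 times in mice 3 and 4. The size of these ratios depends on the length used. Over the 4 livers, Ppara, Pparg and Ppard had means of 44.2, 11.9 and 1.99 by merged exons. By the longest transcript the means were 41.1, 13.7 and 3.32.

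The oxysterol receptors were the steadiest of the 10. Nr1h3 (LXRα, chromosome 2 from 91184061 to 91202834, minus strand) was at 97.8 and 100.4 CPM in the control livers and 109.5 and 101.9 CPM in mice 3 and 4. Nr1h2 (LXRβ, chromosome 7 from 44549616 to 44553951, minus strand) was at 38.2 and 36.2 CPM against 41.9 and 39.3 CPM. For both genes the livers labelled HuR hKO lay just above the controls, and the highest library exceeded the lowest by 1.12 and 1.16 times. The log2 fold changes were 0.09 (95% interval -0.19 to 0.38, adjusted p = 0.903) and 0.13 (-0.17 to 0.43, adjusted p = 0.862) by edgeR. With offsets for GC content and length they were 0.01 and 0.03. The ratio of Nr1h3 to Nr1h2 per kilobase of merged exons stayed between 3.42 and 3.70 in the 4 livers. Its size depends on the length used, with means of 89.3 and 25.4 by merged exons and 93.7 and 35.4 by the longest transcript.

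The xenobiotic receptors differed from each other in pattern. Nr1i2, which encodes PXR (chromosome 16 from 38248323 to 38294824, minus strand), was at 89.4 and 94.8 CPM in the control livers, 98.0 in mouse 3 and 123.2 in mouse 4. As with Ppara, mouse 4 was the highest and mouse 3 lay close to control mouse 2. Its log2 fold change was 0.26 (SE 0.148, 95% interval -0.08 to 0.60, adjusted p = 0.729 from edgeR). It was 0.09 without mouse 4 and 0.40 without mouse 3. Nr1i3, which encodes CAR (chromosome 1 from 171213970 to 171220701, plus strand), was at 328.9 and 442.0 CPM in the control livers and 316.7 and 413.5 CPM in mice 3 and 4. Its groups overlapped, with mouse 3 the lowest of the 4 livers, and the 1.34-fold gap between the control livers was wider than that between the groups' means (log2 fold change -0.08, 95% interval -0.52 to 0.37, adjusted p = 0.956 from edgeR). Per kilobase of merged exons, CAR exceeded PXR by 2.13 and 2.70 times in the control livers and by 1.87 and 1.94 times in mice 3 and 4. This too depends on the length, with means of 185.0 and 86.5 by merged exons and 227.0 and 71.7 by the longest transcript.

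RXRα, HNF4α and LRH-1 varied more between the control livers than between the livers labelled HuR hKO. Rxra, the shared partner (chromosome 2 from 27676440 to 27762957, plus strand), was at 577.7 and 459.8 CPM in control mice 1 and 2 and at 547.2 and 531.3 CPM in mice 3 and 4. Hnf4a, a master regulator of hepatocyte identity (chromosome 2 from 163506808 to 163572910, plus strand), was at 612.4 and 392.3 CPM in the control livers and 523.8 and 441.1 CPM in mice 3 and 4. Nr5a2, which drives bile acid synthesis genes (chromosome 1 from 136842571 to 136960448, minus strand), was at 51.7 and 41.3 CPM against 46.5 and 49.7 CPM. For all 3 genes control mouse 1 was the highest and control mouse 2 the lowest of the 4 livers, with the livers labelled HuR hKO between them. The control livers differed by 1.26-fold for Rxra, 1.56-fold for Hnf4a and 1.25-fold for Nr5a2, and the livers labelled HuR hKO by 1.03-fold, 1.19-fold and 1.07-fold. The log2 fold changes were 0.06 (95% interval -0.31 to 0.42), -0.06 (-0.56 to 0.44) and 0.05 (-0.29 to 0.39), and edgeR gave adjusted p-values of 0.961 to 0.97. Since 1 control liver was the highest and the other the lowest, leaving out either gave different signs: Hnf4a was at 0.29 without control mouse 1 and at -0.34 without control mouse 2.

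**Figure D3:**
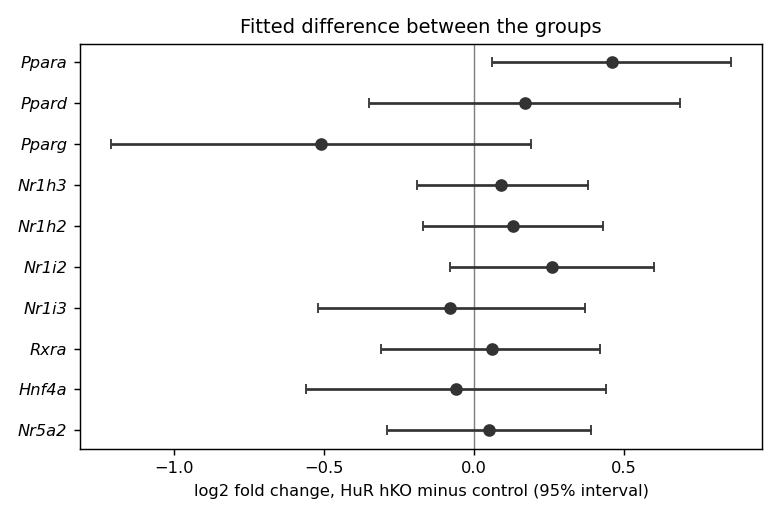
Fitted log2 fold change of each receptor (libraries labelled HuR hKO minus control) with its 95% interval from the edgeR quasi-likelihood fit. The interval of Ppara, 0.06 to 0.86 before any adjustment over genes, is the only 1 of the 10 that leaves out 0, and those of Nr1h3 and Nr1h2 are the narrowest.

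The genes that these receptors are known to switch on were taken from lists written by function, and their levels describe the same livers. Earlier results of these data were known when the lists were written, so the counts below do not come from a blind choice. Of 169 genes on the lists of targets, partners and coregulators, 157 were tested and 0 passed an adjusted p-value of 0.05 in the edgeR quasi-likelihood test, with 15 higher and 6 lower at an unadjusted p-value under 0.05, where 4.04% of all genes tested were higher and 3.39% lower. Other tools called some of them: the DESeq2 Wald test 6 (Apom, Cyp2b13, Cyp2b9, Fasn, Lpl and Vnn1) of 85 genes called in all, edgeR's exact test 9 of 119 and limma-voom 0 of 2. The same edgeR quasi-likelihood test called 9 of 161 without a filter on low counts, 8 of 155 with no scaling for library size, 4 of 43 without control mouse 1, 5 of 73 without control mouse 2, and 0 of 0 and 0 of 7 without mouse 3 or mouse 4. The counts below with 1 mouse left out, at an unadjusted p-value under 0.05, stand beside 3.5% of all genes higher and 3.22% lower without control mouse 1, 5.49% and 5.19% without control mouse 2, 2.95% and 2.79% without mouse 3, and 1.93% and 2.25% without mouse 4. Most genes named below have an unadjusted p-value under 0.05 or are among the 3 most abundant of their list, and Abca1, Abcg5, Cyp2b10, Cidec, Plin4, Nr0b2, Rxrb, Abcg1 and Ppargc1a were named after their values were seen. Some genes stand on several lists.

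PPARα targets went both ways. Of the 36 tested, 3 were higher and 2 lower at an unadjusted p-value under 0.05, beside 4.04% and 3.39% of all genes, and the median log2 fold change was 0.10. Cyp4a14, a fatty acid omega-hydroxylase, was at 158.1 and 71.2 CPM in the control livers and at 254.7 and 321.5 CPM in mice 3 and 4 (log2 fold change 1.33, SE 0.322, adjusted p = 0.352 from edgeR, and 2.00 without control mouse 1 or 0.87 without control mouse 2). Fgf21, a fasting hormone of the liver, was at 0.978 and 1.79 CPM against 3.28 and 2.71 CPM (1.10, adjusted p = 0.574, and 0.72 without control mouse 1), and Ucp2, a mitochondrial carrier, at 28.6 ± 2.07 against 37.1 ± 3.49 CPM (SD, n = 2 each, 0.38, adjusted p = 0.584). In the other direction, Vnn1, the pantetheinase vanin 1, was at 65.2 and 83.5 CPM against 48.2 and 38.0 CPM (log2 fold change -0.79, SE 0.174, adjusted p = 0.268), and Pex11a, a peroxisome division gene, at 131.2 and 174.9 against 113.6 and 110.5 CPM (-0.45, adjusted p = 0.574, and -0.23 without control mouse 2). Over the whole list, 9 genes had both libraries labelled HuR hKO above the controls and 5 had both below, beside 19.3% and 18.8% of all genes. Abundant targets overlapped between the groups: Fabp1, the liver fatty acid binding protein, was at 3612 and 5507 CPM against 4557 and 4249, and Acaa1b, a peroxisomal thiolase, at 2936 and 4380 against 3005 and 3285. The list depended on single mice: 2 were higher and 4 lower (median -0.11) without control mouse 1, 8 higher and 1 lower (median 0.20) without control mouse 2, 4 higher and 1 lower (median 0.18) without mouse 3, and 1 higher and 1 lower (median -0.05) without mouse 4.

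Genes that PPARγ is known to raise in fatty liver numbered 8, with a median log2 fold change of -0.01, which was 0.47 without control mouse 2, 0.03 without control mouse 1, 0.24 without mouse 4 and -0.14 without mouse 3. At an unadjusted p-value under 0.05, 2 were higher and 0 lower, beside 4.04% and 3.39% of all genes, and these counts changed with each mouse left out. Lpl, lipoprotein lipase and also an LXR target, was at 21.6 and 27.5 CPM in the control livers and 66.1 and 52.4 CPM in mice 3 and 4 (log2 fold change 1.27, SE 0.176, unadjusted p = 8.53e-05, adjusted p = 0.092 from edgeR). Fabp4, the adipocyte fatty acid binding protein, was at 8.58 and 7.24 CPM against 10.1 and 16.0 CPM (0.73, adjusted p = 0.555, and 0.36 without mouse 4). In mouse 4, where Pparg was lowest, Fabp4 was the highest of the 4 livers. The adipocyte genes Adipoq (3, 1, 0 and 14 counts in mice 1 to 4), Plin1 (3, 0, 2 and 9), Lep (1, 0, 1 and 6) and Retn (1, 0, 0 and 10) were also highest in mouse 4, at few counts. Of the other adipocyte markers, Cfd, the most abundant, was highest in control mouse 2 (69.1, 128.7, 64.5 and 104.3 CPM in mice 1 to 4), and Adrb3 was at 7.38, 9.41, 6.56 and 9.77 CPM. The part of this list in the Fabp4 value was not tested. Cd36, the fatty acid translocase, was at 73.1 and 79.7 CPM against 62.2 and 72.1 CPM (-0.18, adjusted p = 0.812, and -0.10 without mouse 3 or -0.30 without mouse 4), and G0s2, a lipolysis inhibitor, ranged from 96.5 to 326.0 CPM, both in control livers. The lipid droplet genes Cidec (25.5 to 40.2 CPM) and Plin4 (19.5 to 33.8 CPM) overlapped between the groups.

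Among LXR targets, Lpl (described above) and Fasn had the lowest p-values of the edgeR quasi-likelihood test, which called neither, and both were called by the DESeq2 Wald test, by edgeR's exact test and without a filter on low counts. Of the 16 tested, 4 were higher and 1 lower at an unadjusted p-value under 0.05, beside 4.04% and 3.39% of all genes, with a median of 0.15. Without mouse 3, 2 were higher and 0 lower, and leaving out control mouse 2 or control mouse 1 gave a median of 0.25 or 0.08. Fasn, fatty acid synthase, was at 388.1 and 352.9 CPM in the control livers and 707.1 and 626.8 CPM in mice 3 and 4 (log2 fold change 0.85, SE 0.148, adjusted p = 0.137 from edgeR). Acaca, acetyl-CoA carboxylase, was at 115.1 and 113.3 against 172.9 and 141.1 CPM (0.46, adjusted p = 0.511, and 0.29 without mouse 3), and Rnf145, a ubiquitin ligase of the endoplasmic reticulum, at 30.2 and 31.2 against 57.3 and 34.2 CPM (0.57, adjusted p = 0.619), where mouse 3 held most of the difference (0.14 without it). Scd1, the stearoyl-CoA desaturase and the most abundant of the list, did not follow them, at 13488 and 25732 CPM against 21284 and 11794 CPM. Srebf1, the lipogenic transcription factor, was at 715.6 and 675.9 CPM against 731.8 and 922.1 CPM (0.25, adjusted p = 0.772, and 0.39 without mouse 3 or 0.07 without mouse 4). Of the sterol exporters, Abca1 was at 179.6 and 163.2 CPM against 150.5 and 148.5 (-0.20, adjusted p = 0.768), Abcg1 at 4.97 and 7.02 against 8.79 and 6.95 (0.39, adjusted p = 0.766), and Abcg5 at 242.0 and 259.8 against 228.5 and 274.8 (0.00, adjusted p = 0.995). The log2 fold changes of the list ran from -0.59 (Cyp7a1) to 1.27 (Lpl), and those of LXRα and LXRβ were 0.09 and 0.13.

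CAR and PXR targets also lay on both sides of the controls. Of the 23 tested, 4 were higher and 1 lower at an unadjusted p-value under 0.05, beside 4.04% and 3.39% of all genes, with a median of -0.01. Without mouse 4, 3 were higher and 5 lower (median -0.18), and without mouse 3, 6 were higher and 0 lower (median 0.11). Cyp2b13 was at 0.677 and 1.05 CPM in the control livers and 3.91 and 5.20 CPM in mice 3 and 4 (log2 fold change 2.40, SE 0.373, adjusted p = 0.103 from edgeR), and Cyp2b9 at 6.47 and 8.88 against 16.7 and 27.2 CPM (1.52, SE 0.263, adjusted p = 0.137). Both are steroid and drug hydroxylases that are also known for female-biased expression in mouse liver. Slco1a4, an organic anion importer, was at 17.3 and 11.6 against 24.4 and 28.6 CPM (0.88, adjusted p = 0.312), and Cyp2a5, the coumarin hydroxylase, at 686.9 and 905.5 against 950.8 and 1435 CPM (0.58, adjusted p = 0.617, and 0.38 without control mouse 1 or 0.26 without mouse 4). Cyp2b10, the standard CAR target, was counted 15 and 11 times in the control livers, then 12 and 53 times in mice 3 and 4, so that mouse 4 alone was high (0.94, SE 0.601, adjusted p = 0.768). Cyp3a11, the standard PXR target, was at 1600 and 1421 CPM against 1228 and 1245 CPM (-0.29, adjusted p = 0.713), and Ugt1a1, which glucuronidates bilirubin, at 694.5 and 710.0 against 472.7 and 557.0 CPM (-0.45, adjusted p = 0.556). Cyp2c29 (778.9 to 1446 CPM) and Aldh1a1 (885.1 to 1445 CPM) overlapped between the groups. Cyp2b, Cyp2a and Cyp4a genes have near copies, and Ugt1a1 shares exons with the other Ugt1a genes, so their counts depend on how reads with several matches were assigned.

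HNF4α and LRH-1 targets share some genes, among them Apom and Cyp7a1, which stand on both lists. Of 24 HNF4α targets tested, 2 were higher and 1 lower at an unadjusted p-value under 0.05 (median 0.02), beside 4.04% and 3.39% of all genes, and of 11 LRH-1 targets, 2 were higher and 1 lower (median 0.05). Of the HNF4α targets, 1 was higher and 3 lower without control mouse 1 (median -0.05), 3 higher and 0 lower without control mouse 2 or without mouse 3 (median 0.14 each), and 1 higher and 1 lower without mouse 4 (median -0.10). The LRH-1 median was 0.14 without mouse 3 and -0.13 without mouse 4, and the LRH-1 counts also depended on which mouse was left out. Apom, the apolipoprotein that carries sphingosine 1-phosphate, was at 89.3 and 98.4 CPM in the control livers and 153.8 and 193.8 CPM in mice 3 and 4 (log2 fold change 0.89, SE 0.153, adjusted p = 0.137 from edgeR). Apoc2, the activator of lipoprotein lipase, was at 236.9 and 403.9 against 418.7 and 683.5 CPM (0.78, adjusted p = 0.587, and 0.43 without control mouse 1, 1.22 without control mouse 2 or 0.39 without mouse 4), and Gnmt, glycine N-methyltransferase, at 1257 and 1493 against 1854 and 2379 CPM (0.62, adjusted p = 0.493). Cyp7a1, the rate-limiting enzyme of bile acid synthesis and a shared target of LRH-1, HNF4α and, in mice, LXRα, was at 100.9 and 131.7 CPM against 65.5 and 89.0 CPM (-0.59, SE 0.189, adjusted p = 0.53, and -0.38 without control mouse 2). Over the whole lists, 6 HNF4α targets lay above and 5 below both controls, and 2 and 1 LRH-1 targets, beside 19.3% and 18.8% of all genes. Among the abundant HNF4α targets, Apoa1 was at 7902 and 9609 CPM against 7093 and 10621. Apoa2 was at 7268 and 9521 against 8692 and 11105, and both genes overlapped between the groups. Trf, transferrin, was at 10578 and 9005 against 11651 and 12309, above both controls (0.29, adjusted p = 0.78 from edgeR). Ahcy (1959 to 2567 CPM), the hydrolase of S-adenosylhomocysteine, overlapped between the groups.

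**Figure D4:**
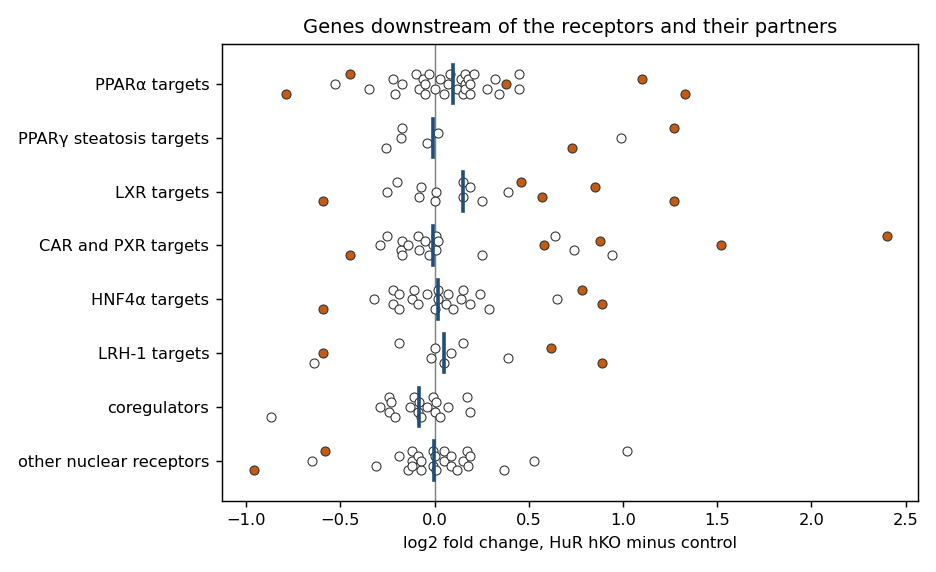
Fitted log2 fold change (libraries labelled HuR hKO minus control) of each tested gene on 8 lists, with filled circles for an unadjusted p-value under 0.05, open circles for the others and a blue bar at each list's median. The medians lie between -0.08 (coregulators) and 0.15 (LXR targets), and of the genes with an unadjusted p-value under 0.05, each counted once, 15 lie above 0 and 6 below.

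Of the 39 other nuclear receptor genes, 28 were tested, and 6 (Rorb, Nr2e1, Nr2e3, Esr2, Nr5a1 and Nr0b1) had 0 counts in all 4 libraries, which allows up to between 0.152 and 0.23 CPM. At an unadjusted p-value under 0.05, 2 of them were lower and 0 higher, beside 3.39% and 4.04% of all genes, and the median of the list was -0.00 on the log2 scale. Without control mouse 2, 2 were higher and 2 lower, and 3 were lower without control mouse 1 or without mouse 3. Rara, the retinoic acid receptor alpha, was at 21.3 and 25.0 CPM in the control livers and 15.3 and 15.6 CPM in mice 3 and 4 (log2 fold change -0.58, SE 0.150, adjusted p = 0.381 from edgeR). Its unadjusted p-value, 0.00436, was lower than that of any of the 10 metabolic receptors. The abundant relatives overlapped between the groups, with Nr2f6 at 126.8 to 147.0 CPM, Nr1h4, the bile acid receptor FXR, at 112.9 to 149.3 CPM, and Nr1d1, the clock repressor REV-ERBα, at 84.9 to 129.7 CPM. Nr0b2, the repressor SHP that is a target of FXR and LRH-1, was at 50.5 and 79.5 CPM against 86.9 and 51.8 CPM, so the groups overlapped. Among the other RXRs, Rxrb was at 33.5 and 35.2 CPM against 36.8 and 36.5 CPM (0.09, adjusted p = 0.903).

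Of 20 coregulators, the proteins that receptors recruit to open or close chromatin, 19 were tested. None had an unadjusted p-value under 0.05 in the edgeR test, beside 4.04% of all genes higher and 3.39% lower. The fitted level was higher for 5 and lower for 14, where 50.3% of all genes were higher, and the median was -0.08. At an unadjusted p-value under 0.05, 2 were lower without control mouse 2 (median -0.16), 2 were lower without mouse 3 (median -0.07), 1 was higher without control mouse 1 (median -0.01), and 0 were higher or lower without mouse 4 (median -0.04). Ncor1, the corepressor, was nearly constant at 78.1, 81.4, 82.6 and 79.9 CPM in mice 1 to 4. Ppargc1a, the coactivator of PPARα and HNF4α, was at 6.32 and 5.75 CPM against 5.79 and 7.91 CPM. Lpin1, a phosphatidate phosphatase that also coactivates PPARα, was at 394.3 CPM in control mouse 1, 48.0 in control mouse 2, and 118.6 and 122.6 in mice 3 and 4. Control mouse 1 was therefore the highest of the 4 livers for Lpin1 as it was for Hnf4a, Rxra and Nr5a2, and the log2 fold change of Lpin1 was 1.32 without that mouse and -1.71 without control mouse 2, past an adjusted p-value of 0.05 in both of these edgeR fits and in opposite directions. The cholangiocyte keratin Krt19 was also highest in control mouse 1 (162 counts, then 5, 7 and 34 in mice 2 to 4), as were Krt7 (35, then 9, 8 and 13) and Epcam (48, then 15, 17 and 37). Of the other cholangiocyte markers, Cftr had 4 counts in control mouse 1 and 0 in the others, Sox9 was at 2.56, 3.06, 2.58 and 3.45 CPM and Spp1 at 31.5, 22.3, 34.8 and 41.9 CPM in mice 1 to 4, both highest in mouse 4. The part of this list in these values was not tested. Tbl1x, a corepressor subunit (43.4 ± 10.5 against 45.5 ± 2.59 CPM, SD, n = 2 each), overlapped between the groups.

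In bulk liver RNA, fewer cells of a type and less RNA per cell cannot be told apart. Hepatocyte markers were abundant in every library (8 of 8 tested, summed level 77727 to 79466 CPM in controls and 71802 to 82868 CPM in mice 3 and 4). Sums of the markers of Kupffer cells (227.1 and 232.6 against 261.7 and 247.3 CPM), monocyte-derived macrophages (57.9 and 56.7 against 77.1 and 76.7), endothelial cells (188.8 and 165.8 against 217.0 and 196.8) and stellate cells (210.6 and 210.2 against 229.8 and 281.6) were higher in both libraries labelled HuR hKO. By gene, both libraries labelled HuR hKO lay above the controls for 5 of 9 Kupffer cell and 2 of 6 tested macrophage markers. The same held for 4 of 7 endothelial and 4 of 8 stellate cell markers, beside 19.3% of all genes. Lower on the fitted scale were Marco (-0.92), Adgre1 (-0.20), Ccr2 (-0.18) and Des (-0.30), as log2 fold changes. Most of the sum for monocyte-derived macrophages was Lyz2 and Spp1, and Spp1 is also a cholangiocyte marker. Lyz2 overlapped between the groups (22.4 and 30.2 against 35.6 and 29.9 CPM). Pparg and the LXRs are also expressed in macrophages and endothelial cells, and Fabp4 and Lpl in cells other than hepatocytes, and the part of these cells in the values was not tested. Adipocyte markers did not separate the groups (77.1 and 138.2 against 71.3 and 116.1 CPM, most of it Cfd). The sums for T and NK cells, B cells and cholangiocytes overlapped between the groups, and the 6 neutrophil markers together held at most 1.57 CPM, with Ly6g at 0 counts.

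HuR is an RNA-binding protein that attaches to U-rich and AU-rich stretches, often in 3′ untranslated regions (UTRs), so the AU-rich pentamer ATTTA (written as DNA, sense strand) was counted in the longest annotated 3′ UTR of each receptor. It was present in 8 of the 10, where 70.1% of the 11972 tested genes with an annotated 3′ UTR held it, and it was absent in Nr1h3 and Nr1i2. Pparg held 4 copies in a 3′ UTR of 204 bases, or 19.6 per kilobase, and Nr5a2 4 copies in 2892 bases. Ppara and Hnf4a held 2 each (1561 and 2819 bases), and Ppard, Nr1h2, Nr1i3 and Rxra 1 each, beside a median of 1.21 per kilobase over all genes. The longer AU-rich element TTATTTATT was found in 0 of the 10 and in 7.78% of all genes. The stretch with most pentamers is shown for the densest case, Pparg, and a single site for Ppara, the receptor with the lowest p-value, with the pentamers in capitals.
Pparg: ttataaagatacATTTAcaATTTActttt
Ppara: ccaaggttagccATTTAaatgtggcaaaa

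These windows cover bases 149 to 177 of the Pparg 3′ UTR and 451 to 479 of the Ppara 3′ UTR in GENCODE M21. The densest were Pparg (19.6 per kilobase), Nr1h2 (2.71), Nr5a2 (1.38) and Ppara (1.28), with log2 fold changes of -0.51, 0.13, 0.05 and 0.46. That of Pparg was -0.04 without mouse 4. Hnf4a, Ppard, Nr1i3 and Rxra, with fewer per kilobase, were at -0.06, 0.17, -0.08 and 0.06. Nr1h3 and Nr1i2, with none, were at 0.09 and 0.26. A link between pentamers and levels was not tested. A match of these letters is a description of the sequence and shows no binding.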

How the data were processed

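Total liver RNA of 4 mice (2 control, 2 labelled HuR hKO) was sequenced. The authors deposited whole-number counts per Ensembl gene without normalization, 1 column per mouse, and 0 columns were left unused. The submitters' processing notes name RSEM and GRCm38, and the aligner, annotation and use of strand are not given in the sources used here. Symbols were matched for 46005 of 46603 identifiers, and coordinates, lengths and transcripts are those of GENCODE M21 (GRCm38).

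Genes were filtered with edgeR's filterByExpr (minimum 10 counts, total 15), scaled with TMM and tested with the edgeR 4.0.16 quasi-likelihood test (R 4.3.3), with Benjamini-Hochberg adjustment over 13001 genes. The SE is the log2 fold change over the root of the F statistic, and 95% intervals use the fit's total degrees of freedom. Each library is 1 mouse. The edgeR p-values rest on the spread between these mice together with a spread pooled over genes (median prior degrees of freedom 6.15). Limits for counts of 0 (3 counts) cover counting error only. The gene test was tested on simulated data. Alternatives used DESeq2 1.42.0, limma 3.58.1 and other scalings, filters and lengths, and each mouse left out. Tables used python 3.11.15, pandas 2.3.3, numpy 2.4.6, scipy 1.17.1 and matplotlib 3.10.9.

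The members and lists were chosen with earlier results of these data known. Genes named are all 10 receptors, Elavl1, the 3 most abundant of each other list and those at an unadjusted p-value under 0.05, of which a few are not reported here. Abca1, Abcg1, Abcg5, Cyp2b10, Cidec, Plin4, Nr0b2, Rxrb, Ppargc1a, Lyz2 and the adipocyte, cholangiocyte and neutrophil markers were named after their values were seen. So were Marco, Adgre1, Ccr2 and Des.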

Additional observations from a re-analysis of the deposited data

How the results depend on the processing

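The 10 receptors were refitted under 15 alternatives, and 0 had an adjusted p-value under 0.05 in any of them, while the count over all genes ran from 0 to 161. The adjusted p of Ppara lay between 0.272 (no scaling for library size) and 0.999 (without mouse 4). The number at an unadjusted p-value under 0.05 was 2 without a filter on low counts, where Pparg joined Ppara, and 0 to 2 with 1 mouse left out. It was 0 without control mouse 2 or mouse 4. With no scaling for library size, which moved the median log2 fold change of all genes to 0.31, the median of the receptors was 0.38, Nr1i3 was at 0.26 and Hnf4a at 0.24, and 9 of the 10 were higher. Under the other alternatives that kept all 4 mice, no receptor changed sign.

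With 1 mouse left out, the median of the receptors lay between 0.05 and 0.18, and single receptors changed sign. Their lowest and highest values were -0.02 and 0.37 for Ppard, -0.29 and 0.15 for Nr1i3, -0.10 and 0.22 for Rxra, -0.34 and 0.29 for Hnf4a, and -0.10 and 0.21 for Nr5a2. Without control mouse 1, Ppard was at -0.02 and Hnf4a at 0.29. Without control mouse 2, Nr1i3 was at 0.15, Rxra at -0.10 and Nr5a2 at -0.10. Without mouse 3, Nr1i3 was at 0.08, and without mouse 4, Hnf4a was at 0.06 and Nr5a2 at -2.5e-05. The lone mouse of a group is then assumed to vary like the others. The cause of these shifts was not tested. No paired analysis was possible because the groups share no mouse numbers. Ppard had the fewest counts of the 10 (74 to 126).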
